A study of Mus musculus with 18 samples.

Results

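The genes described here are 10 growth factors, receptors and regulators tied to liver regeneration: Hgf, Met, Egfr, Areg, Hbegf, Tgfa, Myc, Sphk1, Inhba and Fst. They were chosen by symbol, and all 10 were found among the 47729 genes of the deposited table. Bulk RNA was sequenced from mouse liver after ischemia-reperfusion, in which blood flow is stopped and restored, or after sham surgery. The labels give 3 genotypes, Wt, Il22-/- and Il22bp-/-, with 3 livers of each genotype under each surgery. Il22-/- mice lack the cytokine IL-22, and Il22bp-/- mice lack its soluble binding protein. No source used here gives the strain, sex or age of the mice or the time after reperfusion. Column headers are IR1 to IR9 and W1 to W9. IR matches the 9 ischemia-reperfusion livers, and W was read as sham by elimination, since 9 sham livers remain and W cannot stand for the wild type, which has only 6. No header carries a genotype, so each group of 9 mixes the 3 genotypes, and their differences are part of the spread within each group. The labels give no batch, and they do not say that each library is a separate animal, so p-values measure only the spread between these libraries, which may in part be technical.

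When liver tissue is lost or injured, surviving hepatocytes can leave quiescence and divide. Hepatocyte growth factor, made mainly by stellate and endothelial cells, acts through the receptor tyrosine kinase MET, and a family of EGF-like ligands acts through EGFR. MYC is an early transcription factor of this response, whereas activin A, a dimer of the Inhba product, restrains hepatocyte proliferation and is bound and neutralised by follistatin. SPHK1 makes sphingosine-1-phosphate, a lipid that signals through its own G protein-coupled receptors.

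Depth was similar in the groups. Whole reads could be recovered from the normalized values for 17 libraries, with 10176617 to 12558179 reads in the IR libraries and 10716890 to 12202421 in 8 sham libraries. Alb, the albumin gene of hepatocytes, held 12.9% to 15.9% of the normalized total in the sham libraries and 2.86% to 7.48% in the IR libraries. Surgery separated much of the transcriptome. limma called 10319 of the 13875 genes tested (74.4%) at an adjusted p under 0.05, 5224 (37.7%) higher and 5095 (36.7%) lower after ischemia-reperfusion. With every library scaled to the same total, the split was 6373 higher and 3956 lower, and the median of all genes moved up by 0.24 on the log2 scale.

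All 10 genes were called, 8 higher and 2 lower in the IR libraries, against a share of 74.4% called among all genes tested. Of the 8, 7 differed by at least 2-fold, as did 16.2% of all genes in that direction, and both lower genes passed the same fold, as did 17.3% of all genes. In 4 higher genes and both lower genes the 9 IR libraries did not overlap the 9 sham libraries, compared with 18.6% of genes wholly above and 19.1% wholly below. Areg and Sphk1 reached the filter, a mean normalized count of 5, only through the IR libraries and could hardly have passed without differing. The other 8 reached that mean in both groups. Values below are counts normalized with the authors' size factors unless stated, and differences are log2(normalized count + 1) in IR minus sham, with the standard error from limma.

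**Figure D1:**
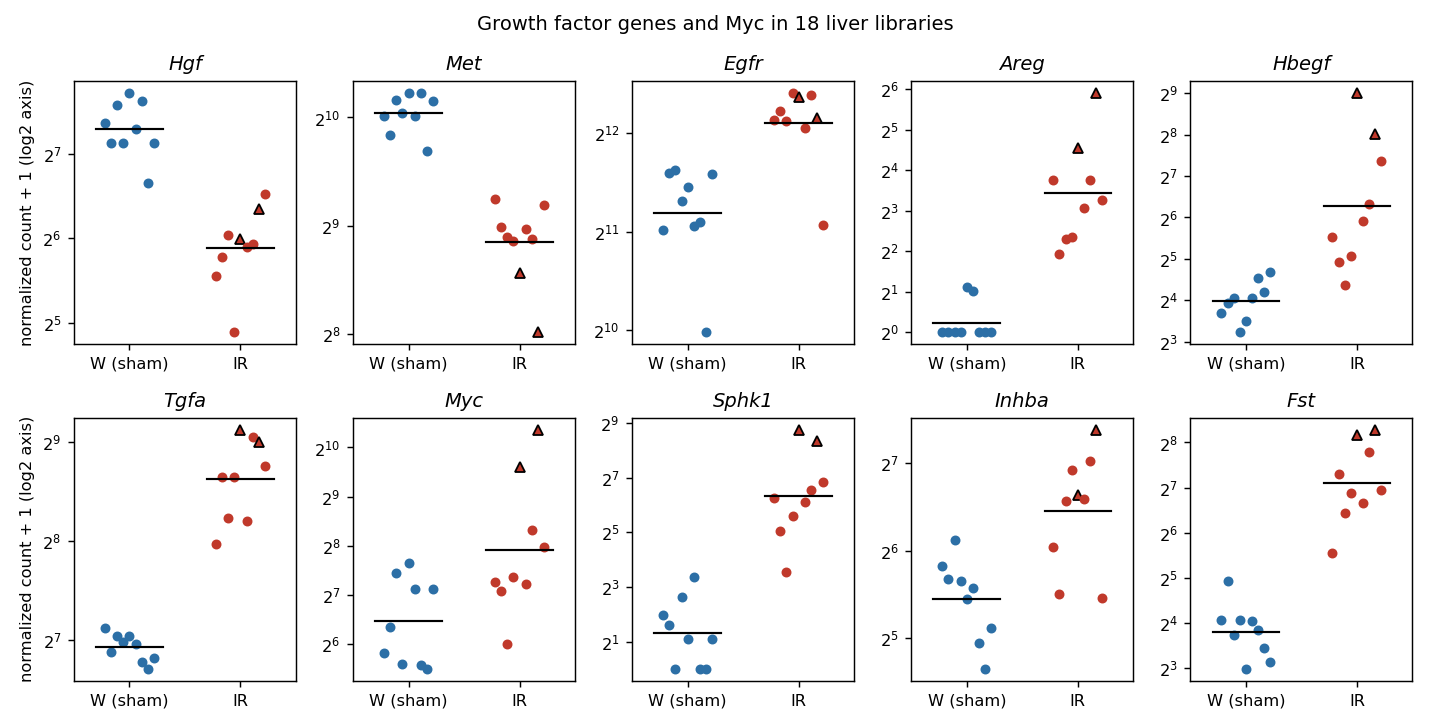
Normalized count + 1 on a log2 axis for each of the 10 genes, with 1 point per library, sham (W) in blue and IR in red; black lines are means on the log2 scale and outlined triangles are the libraries IR5 and IR8. Hgf and Met are lower in all 9 IR libraries, Areg, Tgfa, Sphk1 and Fst are higher in all 9, and the groups overlap in Egfr, Hbegf, Myc and Inhba.

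The ligand HGF and its receptor both fell. Hgf (ENSMUSG00000028864), on chromosome 5 from 16553495 to 16620152 of GRCm38, ranged from 99.9 through a median of 156 to 210 in the sham libraries and from 28.6 through 60.1 to 91.1 in the IR libraries. Every IR library thus lay below every sham library. The difference in Hgf was -1.41 ± 0.18, with a limma adjusted p of 5.84e-07. Met (ENSMUSG00000009376), on chromosome 6 from 17463800 to 17573980, ranged from 823 through 1050 to 1197 in sham and from 258 through 476 to 606 in IR. For Met too the groups did not overlap, and the difference was -1.19 ± 0.13 (limma adjusted p = 5.97e-08). In bulk tissue, fewer cells of a type and less RNA per cell cannot be told apart, which bears on Hgf because its main source is a minority of liver cells. Of 8 markers fixed for stellate cells and fibroblasts, 3 fell and 5 rose. Named after their values were seen, the 3 that fell included Lrat, the retinol-esterifying enzyme of quiescent stellate cells, from 462 ± 74.6 to 128 ± 41.1 (SD, n = 9), and the 5 that rose included Col1a1, from 50.2 ± 23.1 to 468 ± 153 (SD, n = 9). In the sinusoidal endothelial list, 4 of 5 markers fell and Lyve1 rose. The part of these cell types in the fall of Hgf was not tested.

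Of all genes tested, 37.7% were called higher and 36.7% lower, shares that also stand beside the counts of the later lists. Around HGF and MET, 12 further genes were measured, of which 8 rose, 1 fell and 3 were not called, with a median difference of 0.94 compared with 0.02 over all genes tested. Among those that rose were genes of the plasminogen activator system, which can cut pro-HGF and remodel matrix. Plaur, the urokinase receptor, rose from a mean of 7.83 to 252 (4.46 ± 0.39, limma adjusted p = 2.39e-09), and Plat, tissue plasminogen activator, from 2.71 to 66.1 (3.82 ± 0.45). Plat, like St14 and Mst1r, was under the minimum mean in sham, so that 3 of the 8 entered the test only through the IR libraries. Gab1, the docking adaptor of MET, was the gene that fell (-0.56 ± 0.10). Urokinase itself, Plau, had means of 23.1 in IR and 21.0 in sham and was not called, as was the case for the pro-HGF proteases Hgfac (2740 and 2813) and Hpn (4607 and 4217).

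**Figure D2:**
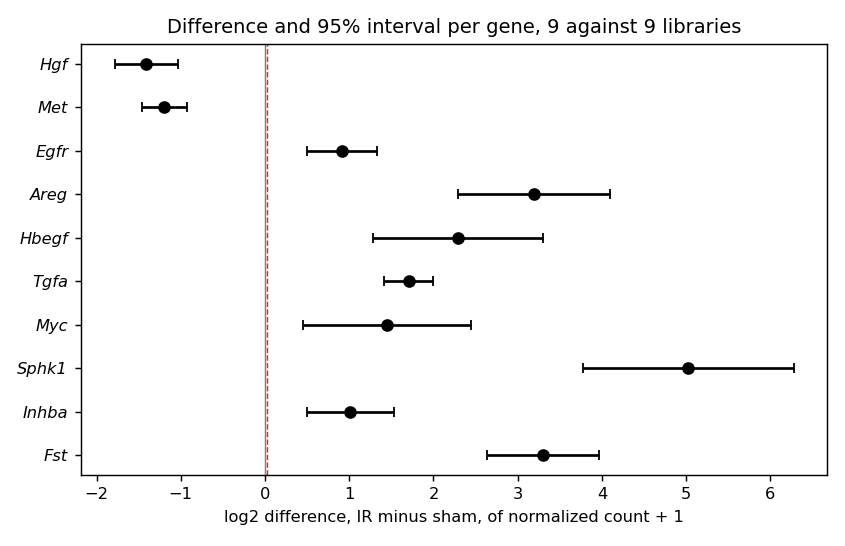
Log2 difference (IR minus sham) of normalized count + 1 for each gene, as points with 95% intervals from limma over 9 against 9 libraries; the grey line is 0 and the dashed line the median of all genes tested, 0.02. The 2 genes of the HGF axis lie below 0 and the other 8 above, with intervals widest for Sphk1, Hbegf and Myc.

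Egfr and the 3 genes of EGFR ligands among the 10 rose. Egfr (ENSMUSG00000020122), on chromosome 11 from 16752203 to 16918158, was the most abundant of the 10 genes per kilobase of exon in both groups, at 217 ± 61.2 normalized counts per kb in sham and 401 ± 88.0 in IR (SD, n = 9). Its normalized count ranged from 1006 through 2533 to 3172 in sham and from 2144 through 4568 to 5444 in IR. In 8 of 9 IR libraries Egfr exceeded every sham library, and IR9, at 2144, lay within the sham range. The difference was 0.91 ± 0.20 (limma adjusted p = 0.000372), less than 2-fold.

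Tgfa (ENSMUSG00000029999), which encodes the EGFR ligand TGF-alpha and lies on chromosome 6 from 86195223 to 86275719, varied least of the 10 genes among the sham libraries. Its counts ran from 103 through 123 to 138 in sham and from 249 through 400 to 557 in IR. The groups were well apart, and Tgfa rose by 1.70 ± 0.14 (limma adjusted p = 8.56e-10). Areg (ENSMUSG00000029378), on chromosome 5 from 91139599 to 91148432, encodes amphiregulin. It was at 0 in 7 of 9 sham libraries, at 1.15 and 1.04 in W5 and W6, and between 2.83 and 58.8 with a median of 8.59 in IR. Any Areg signal in sham was thus near the limit of detection, and the 9 IR libraries were all above it. Over the 9 IR libraries and 8 sham libraries with recovered reads, 159 and 2 Areg reads were counted, a depth-corrected ratio of 60.2 (exact 95% interval 16.4 to 501, counting error only). Of the 159 reads, 79 came from IR8 and 26 from IR5. The mean normalized count of Areg in IR was 14.8, and 7.39 without IR5 and IR8. The limma difference over all libraries was 3.19 ± 0.44 (adjusted p = 1.39e-06). Without IR8, the mean of Areg fell under the filter and Areg was not tested.

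Hbegf (ENSMUSG00000024486), on chromosome 18 from 36504927 to 36515805, encodes heparin-binding EGF-like growth factor, a ligand shed from the cell surface. Its counts ran from 8.39 through 15.5 to 24.8 in sham and from 19.6 through 59.7 to 512 in IR. All but IR3 among the IR libraries exceeded every sham library. Hbegf rose by 2.29 ± 0.48 (limma adjusted p = 0.000256), and by 1.65 without IR5 and IR8, the libraries with the highest values (512 and 258).

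Taken per kilobase of exon, the transcripts of 7 EGFR ligands (Egf, Tgfa, Areg, Hbegf, Btc, Ereg and Epgn) summed to 24.5 to 33.2 in sham and 59.9 to 250 in IR, a sum formed after the values were seen. Tgfa held the largest median share, 65.0% in sham and 55.2% in IR. In IR5, however, Hbegf held 45.0% of the ligand sum, and in IR8 Areg held 19.3%, the highest shares of these ligands in any library. IR5 and IR8 also had the largest ligand sums of the 9 IR libraries. Of the ligands outside the 10 genes, Ereg (3.26 ± 0.39) and Btc (1.13 ± 0.37) were called higher, and Egf (0.43 ± 0.33) was not called. Ereg entered the test only through the IR libraries, and Epgn was under the filter.

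**Figure D3:**
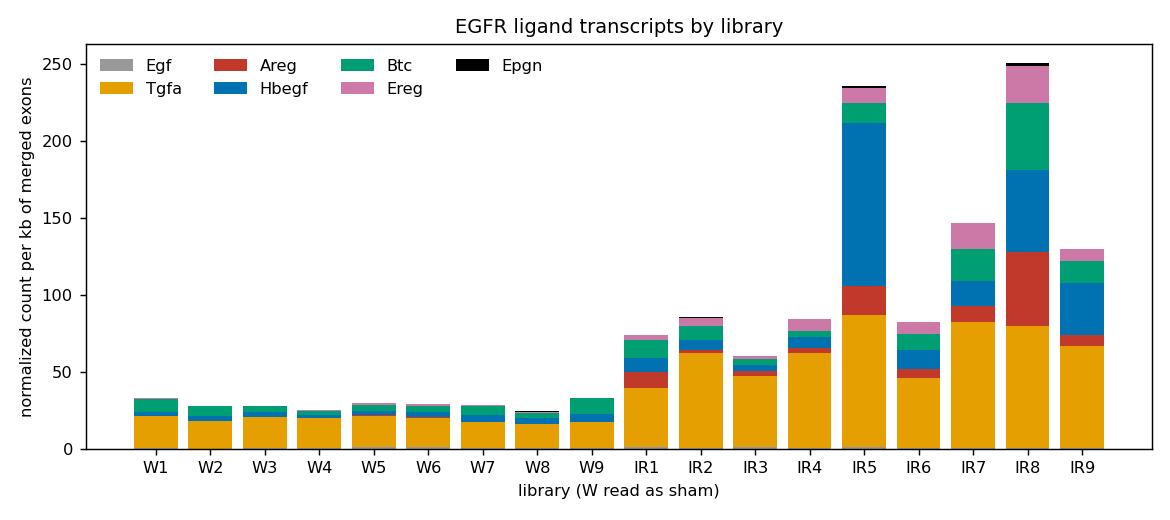
Normalized counts per kb of merged exons for 7 EGFR ligands, stacked by library, 9 sham (W) libraries at left and 9 IR libraries at right. Every IR library stands above every sham library, IR5 and IR8 are highest, and Tgfa is the largest layer in all libraries except IR5.

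Among 20 further genes of the ERBB pathway, 19 were tested, of which 10 rose, 2 fell and 7 were not called (median 0.43), against a share of 74.4% called among all genes tested. Of the 10, Ereg and Nrg1 (28.6 in IR, 2.46 in sham) entered the test only through the IR libraries. The strongest calls were the inactive rhomboids that carry the shedding protease ADAM17 to the cell surface: Rhbdf2 rose from 68.6 to 412 (2.47 ± 0.21) and Rhbdf1 from 62.1 to 292 (2.13 ± 0.20). Adam17 itself had means of 279 and 274 and was not called. Lrig1, a negative regulator of ERBB receptors, rose from 182 to 345 (0.91 ± 0.10). Erbb4 was lower in IR, at 3.71 compared with 23.9 (-2.69 ± 0.36), and entered the test through the sham libraries, while the feedback inhibitor Spry4 also fell (-0.57 ± 0.21, limma adjusted p = 0.0197). Other feedback inhibitors of the list were named after their values were seen. Spry2 rose by 1.00 ± 0.28, Spry1 by 0.50 ± 0.17 and Errfi1 by 0.37 ± 0.12 (limma adjusted p = 0.00308, 0.0142 and 0.0107). Spred1 was not called (-0.02 ± 0.23, limma adjusted p = 0.929), and neither was Lrig3, a relative of Lrig1 (-0.12 ± 0.13, limma adjusted p = 0.431). The Spry4 call was lost with the exact rank test (adjusted p = 0.0674), edgeR (0.0593), DESeq2 (0.0610) and total count scaling (0.208).

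The activin subunit gene Inhba and the follistatin gene Fst both rose, Fst by more than Inhba. Inhba (ENSMUSG00000041324), on chromosome 13 from 16011851 to 16031621, ran from 24.1 through 46.6 to 68.3 in sham and from 43.0 through 95.5 to 165 in IR. In 6 of 9 IR libraries it exceeded every sham library, and the difference was 1.01 ± 0.25 (limma adjusted p = 0.00102). Fst (ENSMUSG00000021765), on the same chromosome from 114452290 to 114458951, encodes follistatin. It ran from 6.93 through 13.3 to 29.6 in sham and from 46.0 through 122 to 310 in IR. The Fst groups did not overlap, and Fst rose by 3.30 ± 0.32 (limma adjusted p = 1.07e-08). The ratio of Fst to Inhba per kb, computed after the values were seen, was 0.226 to 0.824 in sham and 0.988 to 4.95 in IR with merged exons as length. With the longest transcript as length it was 0.355 to 1.29 in sham and 1.55 to 7.77 in IR. The groups did not overlap with either length, and the ratio was below 1 in 9 sham libraries with the first and in 8 with the second.

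Of 17 further activin pathway genes, 15 were tested. Of these, 10 rose, 2 fell and 3 were not called (median 0.64). Fstl3, 1 of the 10, had means of 9.87 in IR and 0.458 in sham and entered the test only through the IR libraries. Inhbb, the other main activin subunit, rose from 9.60 to 243 (4.44 ± 0.42, limma adjusted p = 8.49e-09). Its difference was larger than those of Inhba (1.01) and Fst (3.30), and Inhbb has no part in the ratio of Fst to Inhba. The type I receptor Acvr1b rose from 106 to 264 (1.29 ± 0.12) and the signal transducer Smad3 from 86.0 to 264 (1.51 ± 0.22). The type II receptor Acvr2a fell from 207 to 134 (-0.65 ± 0.13), and so did the decoy receptor Bambi (-0.44 ± 0.11), whose call was lost with total count scaling (adjusted p = 0.129).

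Sphk1 (ENSMUSG00000061878), on chromosome 11 from 116530925 to 116536674, showed the largest difference of the 10 genes on the log2(normalized count + 1) scale, whereas its ratio of means, 54.5, was below the 60.8 of Areg. It was at 0 in 3 sham libraries, reached 9.32 in W6, and ran from 10.8 through 75.3 to 432 in IR. Its groups did not overlap, although IR3, at 10.8, lay just above W6. The difference was 5.02 ± 0.60 (limma adjusted p = 2.20e-07), the 33rd highest among all genes tested, and 4.39 without IR5 and IR8. In recovered reads, 1395 were counted over 9 IR libraries and 18 over 8 sham libraries, a depth-corrected ratio of 58.7 (exact 95% interval 37.0 to 99.3, counting error only). Of the 1395 reads, 498 came from IR5 and 432 from IR8.

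The rest of the sphingosine-1-phosphate pathway was divided, as were all genes tested (37.7% higher and 36.7% lower). Of 13 genes tested from a list of 14, 4 rose, 6 fell and 3 were not called (median -0.34). S1pr2, a receptor, rose from 44.4 to 193 (2.01 ± 0.18), and so did the lyase Sgpl1 (0.60 ± 0.11) and the second kinase Sphk2 (0.78 ± 0.19). Lower were the ceramidases that supply sphingosine, Asah1 (937 to 294, -1.68 ± 0.09) and Asah2 (198 to 78.3, -1.37 ± 0.16), and the phosphatase Sgpp1 (800 to 415, -0.95 ± 0.07).

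Promoter sequence is shown for genes that hold a short motif of signal-responsive factors, because Areg, Hbegf, Sphk1 and Myc moved together among the IR libraries (described below). RefSeq start sites on GRCm38.p6 gave 12 windows of 250 bases upstream for 7 of the 10 genes; Hbegf, Myc and Fst were not among them. Searched on both strands were CRE (TGACGTCA), AP-1 (TGANTCA), an E-box (CACGTG), an NF-kB motif and an EGR form (GCGNGGGCG). The Areg window, chr5:91139349-91139598 on the plus strand, held the CRE, in capitals, which 1.55% of all 32851 windows held:
Areg: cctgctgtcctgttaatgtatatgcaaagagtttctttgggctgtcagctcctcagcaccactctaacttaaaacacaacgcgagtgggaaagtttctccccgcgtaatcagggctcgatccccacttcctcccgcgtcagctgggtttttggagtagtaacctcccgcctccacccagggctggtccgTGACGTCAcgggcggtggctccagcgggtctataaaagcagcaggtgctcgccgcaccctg
The AP-1 letters, in capitals in 30-base stretches below, were found 48 to 54 bases before the start of Met (chr6:17463891-17463920, plus strand), and 44 to 50 bases before the second of 5 Sphk1 starts (chr11:116531775-116531804, plus strand). They occurred in 6.75% of all windows.
Met: ctgttgcccggcTGAGTCAcgggccgggca
Sphk1: tgagcgtgtcgcTGAGTCAccttctcggaa
Both genes also held the E-box letters, which 6.02% of windows held, Met in the same window and Sphk1 at its last pair of starts. Met fell and Sphk1 rose, and any part of these letters in either direction was not tested. Hgf, Egfr, Tgfa and Inhba held none of the 5 motifs in these windows. A match is a description of letters only.

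Myc (ENSMUSG00000022346), on chromosome 15 from 61985391 to 61990374, was the most variable of the genes in sham after Sphk1 and had the highest adjusted p of the 10. It ran from 43.9 through 80.7 to 199 in sham and from 62.7 through 163 to 1316 in IR. Only 4 of the 9 IR libraries exceeded every sham library, and IR3 lay within the lower part of the sham range. The difference was 1.45 ± 0.48 (limma adjusted p = 0.009997). Without IR8 and IR5, where Myc reached 1316 and 779, the mean of the IR libraries was 175 compared with 369 with them, and the difference was 0.85 (limma adjusted p = 0.0401).

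Of 10 partners and relatives of MYC, 3 rose, 2 fell and 5 were not called (median 0.17), against a share of 74.4% called among all genes tested. Max, the dimerisation partner, rose from 247 to 409 (0.71 ± 0.12), and the repressive MAX partners Mnt (99.9 to 249, 1.25 ± 0.16) and Mxd1 (69.3 to 243, 1.59 ± 0.27) rose as well. Mycl fell from 109 to 40.3 (-1.44 ± 0.14). Mxi1 also fell (-0.39 ± 0.11), a call lost with total count scaling (adjusted p = 0.293). Of 25 genes commonly listed as MYC targets, mainly in ribosome assembly, nucleotide and polyamine synthesis, 17 rose, 2 fell and 6 were not called (median 0.74). Cad, which starts pyrimidine synthesis, rose from 61.0 to 522 (3.10 ± 0.14, limma adjusted p = 1.52e-13), Mybbp1a from 330 to 1446 (2.06 ± 0.16) and Polr1b, a subunit of RNA polymerase I, from 96.9 to 249 (1.34 ± 0.09). Npm1 (-0.89 ± 0.15) and Ccnd2 (-0.73 ± 0.11) fell.

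**Figure D4:**
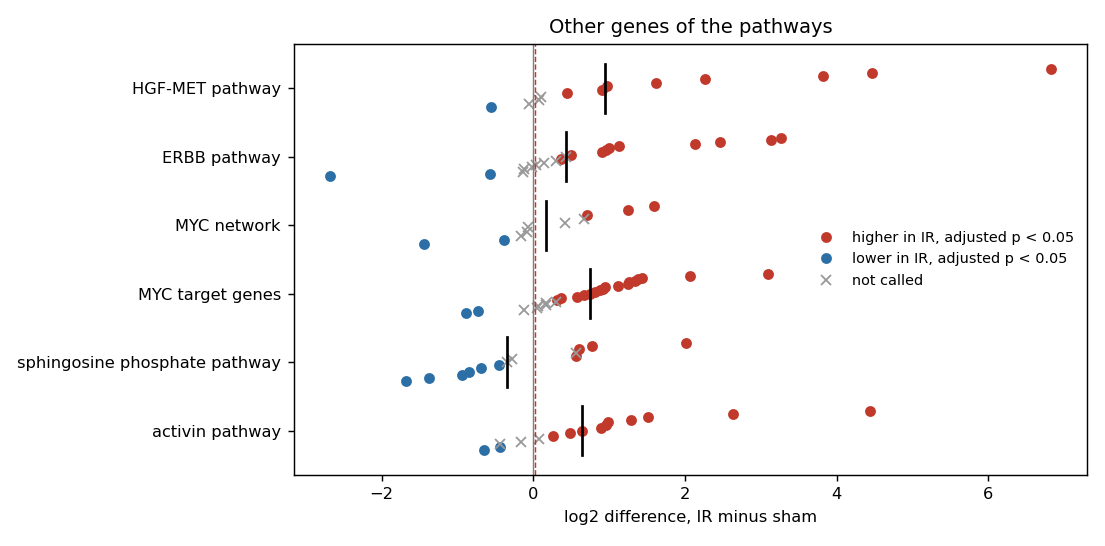
Log2 difference (IR minus sham) for the genes tested in 6 pathway lists, red for higher and blue for lower at a limma adjusted p under 0.05, grey crosses for genes not called; black bars are list medians and the dashed line the median of all genes tested. Medians are highest in the HGF-MET list (0.94) and the MYC target list (0.74) and below 0 only in the sphingosine phosphate list (-0.34).

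The 9 IR libraries differed among themselves, and Areg, Hbegf, Myc and Sphk1 did so together. Hbegf spanned 24.9-fold among the IR libraries and 2.75-fold among the sham libraries on the scale of normalized count + 1, and its SD on the log2 scale was 1.55 compared with 0.47 (exact permutation p = 0.00444, adjusted over 10 genes p = 0.0393). The SD of Tgfa was also larger in IR, 0.41 compared with 0.14 (exact permutation p = 0.00786, adjusted p = 0.0393). No other gene passed, with Areg next at 1.25 and 0.47 (exact permutation p = 0.0331, adjusted p = 0.110). Neither call held without IR5 (adjusted p = 0.0944 for both genes, exact permutation test) or without IR8 (0.0592 for both). The SD difference of Hbegf was 1.08 with all libraries, 0.78 without IR5 and 1.04 without IR8, and that of Tgfa was 0.28, 0.26 and 0.28. Leaving out IR1, IR3, IR6 or IR7 also took the adjusted p of Tgfa past 0.05, with SD differences of 0.22 to 0.27.

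Within the IR group, Sphk1 and Hbegf gave a Pearson r of 0.95 and a Spearman rho of 0.98 over 9 libraries (exact permutation p = 5.51e-06 and 4.96e-05, adjusted 7.16e-05 and 0.000645). Sphk1 and Myc gave 0.94 and 0.92 (exact permutation p = 0.000295 and 0.00131, adjusted 0.00192 and 0.00853). Hbegf and Myc gave 0.90 and 0.90 (exact permutation p = 0.000923 and 0.00203, adjusted 0.00300 and 0.00879). For Areg, r was 0.90 with Myc (exact permutation p = 0.000920, adjusted 0.00300) and 0.81 with Hbegf (0.00718, adjusted 0.0156), with rho 0.85 for each (0.00607, adjusted 0.0158). Without the 2 libraries farthest from the median of the first gene, r was 0.94, 0.92, 0.82, 0.84 and 0.82 for these 5 pairs. IR5 and IR3 were left out for the Sphk1 pairs, and IR2 and IR8 for the Areg pairs. Only the pair of Hbegf and Myc was taken without both IR5 and IR8. Adjustment was over 13 relations, 8 in the IR group and 5 in the sham group, and the genotypes of the libraries are unknown.

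**Figure D5:**
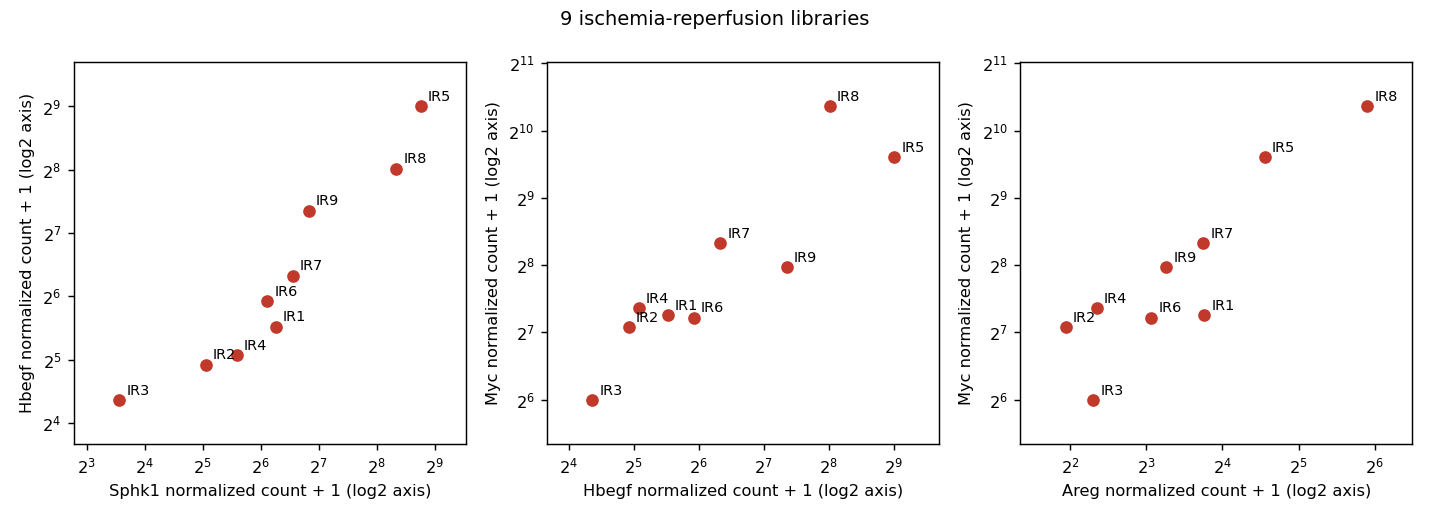
Normalized count + 1 on log2 axes for 3 gene pairs in the 9 IR libraries, each point labelled with its column header. IR5 and IR8 lie at the upper right of each panel, and IR3 has the lowest Sphk1, Hbegf and Myc.

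No such relation passed in the sham libraries for the same pairs: r was 0.04 for Hbegf and Myc, 0.06 for Sphk1 and Myc, and -0.50 for Sphk1 and Hbegf (exact permutation p = 0.909, 0.874 and 0.174). Areg was too often at 0 to be correlated there, Sphk1 held few reads, and the difference between the groups was not tested. Egfr was unrelated to Areg in IR (r = 0.05, rho = 0.07, exact permutation p = 0.897 and 0.880). Inhba and Fst had r = 0.44 and rho = 0.52 in IR and 0.41 and 0.55 in sham, none of them past the threshold (exact permutation p = 0.241, 0.162, 0.268 and 0.133). Hgf and Met rose and fell together among the sham libraries (r = 0.86, rho = 0.73, exact permutation p = 0.00267 and 0.0311, adjusted 0.00694 and 0.0674). Without W5 and W8 r was 0.63 and did not pass, with fewer libraries left (exact permutation p = 0.141). In IR, Hgf and Met had r = -0.24 and rho = -0.20 (exact permutation p = 0.479 and 0.613), and r = -0.91 without IR9 and IR4 (0.00714).

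Transcripts of several other cell types varied with the same 4 genes. The 11 marker lists, depth and the MYC targets gave 50 relations, all examined after the values of these libraries were seen. Exact permutation p-values are unadjusted unless called adjusted, and adjustment was over the 50, for r and rho separately. In IR, no relation with the hepatocyte, Kupffer cell, sinusoidal endothelial, mesothelial, lymphocyte and NK cell or pancreatic sums passed after adjustment. The smallest adjusted p among these was 0.219 for r and 0.106 for rho (exact permutation). The summed neutrophil markers ran from 53.9 to 126 in sham and from 314 to 4072 in IR, highest in IR8 (4072) and IR5 (2531) and lowest in IR3 (314). All 7 of the 9 neutrophil markers that could be tested rose, but 4 of them reached the filter only through the IR libraries. Ly6g, which defines the lineage, had a mean of 5.03 in IR and was at 0 in 7 of 9 sham libraries. The summed platelet markers (64.6 to 313 in IR, 51.8 to 86.2 in sham) and monocyte markers (185 to 1001 in IR, 503 to 715 in sham) were also highest in IR8 and lowest in IR3. Cholangiocyte markers (850 to 14609 in IR, 373 to 744 in sham) were highest in IR5 and lowest in IR3. Most of that sum was Spp1 and Sox9 (means of 4289 and 1037 in IR), which other cells can also express. Krt19, Krt7 and Epcam had means of 49.8, 30.3 and 41.4.

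In the IR group the log2 neutrophil sum gave r = 0.94 with Myc, 0.92 with Sphk1, 0.85 with Areg and 0.82 with Hbegf (exact permutation p = 3.86e-05, 0.000653, 0.00412 and 0.00605, adjusted 0.00179, 0.0109, 0.0216 and 0.0216). The corresponding rho was 0.88, 0.90, 0.87 and 0.93 (exact permutation p = 0.00308, 0.00203, 0.00451 and 0.000750, adjusted 0.0282, 0.0254, 0.0282 and 0.0254). Without the 2 farthest libraries r was 0.95, 0.89, 0.79 and 0.71 (exact permutation p = 0.00278, 0.00774, 0.0248 and 0.0800). Those libraries were IR5 and IR8 for Myc and Hbegf, IR5 and IR3 for Sphk1, and IR2 and IR8 for Areg. The relation with Hbegf thus did not pass without IR5 and IR8, with fewer libraries left. The platelet sum gave r = 0.95, 0.86, 0.84 and 0.83 with Myc, Sphk1, Areg and Hbegf (exact permutation p = 7.16e-05, 0.00325, 0.00486 and 0.00532, adjusted 0.00179 for Myc and 0.0216 for the others). The cholangiocyte sum gave 0.85, 0.87, 0.61 and 0.82 (exact permutation p = 0.00449, 0.00363, 0.0839 and 0.00532, adjusted 0.200 for Areg and 0.0216 for the others). The monocyte sum gave 0.90, 0.84, 0.65 and 0.78 (exact permutation p = 0.00146, 0.00578, 0.0594 and 0.0129, adjusted 0.0183, 0.0216, 0.148 and 0.0380). The stellate cell and fibroblast sum gave 0.79, 0.69, 0.70 and 0.81 (exact permutation p = 0.0119, 0.0422, 0.0349 and 0.00811, adjusted 0.0372, 0.111, 0.0971 and 0.0270). For Myc, Sphk1, Areg and Hbegf in that order, rho was 0.87, 0.85, 0.68 and 0.90 with the platelet sum, 0.90, 0.83, 0.63 and 0.87 with the cholangiocyte sum, 0.82, 0.72, 0.55 and 0.73 with the monocyte sum, and 0.48, 0.58, 0.38 and 0.67 with the stellate cell sum. No rho with the stellate cell sum passed after adjustment (exact permutation, adjusted p from 0.173 to 0.539). With the monocyte sum only Myc passed (0.0490), and with the platelet and cholangiocyte sums all but Areg did (0.157 and 0.200 for Areg). Without the 2 farthest libraries r was 0.89, 0.83, 0.73 and 0.73 for platelets, 0.94, 0.56, 0.72 and 0.67 for cholangiocytes, 0.86, 0.59, 0.67 and 0.55 for monocytes, and 0.22, 0.79, 0.45 and 0.59 for stellate cells. The part of these cell types in the levels of the 4 genes was not tested.

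Depth in recovered reads gave r of 0.25 with Myc, 0.16 with Hbegf, 0.35 with Areg and 0.15 with Sphk1 (exact permutation p = 0.518, 0.677, 0.355 and 0.707). Without the 2 farthest libraries of each gene these were -0.84, -0.64, -0.24 and 0.39 (exact permutation p = 0.0185, 0.119, 0.592 and 0.395), so that among the 7 libraries other than IR5 and IR8 Myc was lower where depth was higher. Myc and the mean log2 level of its 25 listed targets gave r = 0.84 and rho = 0.70 in IR (exact permutation p = 0.00305 and 0.0433, adjusted 0.0216 and 0.144). Without IR5 and IR8 r was 0.70 and did not pass over the 7 libraries left (exact permutation p = 0.0778). In sham r was 0.18 (exact permutation p = 0.771).

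Among genes with a mean normalized count of at least 50, those whose deviations from the group means over 18 libraries were most like each gene's were as follows. For Hbegf they were Pde4b (Pearson r = 0.93) and Tiparp (0.93), for Areg Akap12 (0.92) and Ndrg1 (0.90), and for Myc Adamts4 (0.91) and Snx18 (0.90). For Sphk1 they were Usp2 (0.82) and Csnk1e (0.82), for Tgfa Sptlc2 (0.91) and Stom (0.89), and for Fst Ywhaz (0.87) and Metrnl (0.86). Hgf was most like Smad5 (0.89) and Abcc3 (0.88), Met most like Lipa (0.88) and Slc35d1 (0.87), Egfr most like C8b (0.84) and Ces3b (0.84), and Inhba most like Slc1a4 (0.76) and Trpm2 (0.76). These are the highest of 9854 or 9855 correlations per gene and are descriptions only.

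Per kilobase of merged exons, the order in sham was Egfr (217), Met (138), Myc (37.6), Hgf (22.2), Tgfa (18.6), Inhba (6.96), Hbegf (3.23), Fst (3.08), Sphk1 (0.509) and Areg (0.200). In IR it was Egfr (401), Myc (136), Tgfa (62.9), Met (61.3), Fst (34.9), Sphk1 (27.7), Hbegf (27.5), Inhba (14.8), Areg (12.2) and Hgf (8.44). Neighbours whose means differed by less than the larger of their SDs were Myc and Hgf, Hgf and Tgfa, Hbegf and Fst, and Sphk1 and Areg in sham. In IR this held for every pair of neighbours except Egfr and Myc, and Met and Fst. Hgf thus stood at place 4 in sham and 10 in IR by merged exons, and at 3 and 8 with the longest transcript as its length.

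The remaining marker lists place these values in the tissue. Of 8 hepatocyte markers 7 fell and 1, the acute phase gene Fga, rose (47970 to 300231), while Alb fell from 1780990 to 523199. Of 6 Kupffer cell markers 5 fell, the most abundant being Clec4f (2611 to 1054) and Cd5l (2492 to 706), and 1 rose. Of 5 monocyte markers 3 rose, among them Chil3 (2.38 to 152), and 2 of the 3 reached the filter only through the IR libraries, while Plac8 fell (510 to 179). Of 5 cholangiocyte markers 4 rose, including Spp1 (408 to 4289) and Sox9 (21.3 to 1037), genes that injured hepatocytes and other cells can also express. In the stellate cell list the most abundant called genes were Ecm1 (1379 to 2568) and Col3a1 (437 to 663), and in the endothelial list Clec4g (1407 to 371) and Fcgr2b (1074 to 357). Mesothelial markers fell in 3 of 4 cases, among them Upk3b (69.1 to 12.2) and Msln (42.2 to 28.4, adjusted p = 0.0279 by limma and 0.0822 by the exact rank test, 0.0567 without IR4, 0.0573 without IR7 and 0.0508 without W6), all 4 lymphocyte and NK cell markers tested fell, 2 of which reached the filter only through sham (among them Nkg7, 23.7 to 5.52), and 2 of 3 platelet markers rose (Itga2b, 45.6 to 82.6, and Pf4, 18.8 to 38.3, adjusted p = 0.0258 by limma, 0.0522 without IR8, 0.0507 without W7 and 0.114 without IR5 and IR8). The most abundant neutrophil genes were S100a9 (32.02 to 655) and S100a8 (26.7 to 490). The pancreatic list held 1 tested gene, Cela2a, which fell from 15.8 to 3.69 and reached the filter only through the sham libraries.

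Other annotated genes overlap some of these loci, and no source states whether counting used strand. Where such overlapping features were in the table they were low: Gm43489, on the same strand as Hgf, had means of 3.01 in IR and 1.58 in sham, and Egfros, antisense to Egfr, had 1.68 and 0.587.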

How the data were processed

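Liver RNA of 18 samples was measured, 9 per surgery with genotypes mixed. Per the submitters' processing notes, the tools were Trimmomatic 0.33, STAR 2.5.0a and DESeq2 1.14 with GRCm38. The read counter, annotation and filters: not given in the sources used here. The deposited signal values are normalized counts, read from the table's name and the notes as gene counts over DESeq2 size factors. In all 18 columns 100% of values above 0 were whole multiples (within 0.001 reads) of the value of 1 read. W1, whose unit is near 1, was left out of the count tests, which used 17 libraries.

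Symbols came from GENCODE vM21 for 47224 of 47729 identifiers. The main test was limma 3.58.1 (R 4.3.3, trend) on log2(normalized count + 1) for genes with a mean of at least 5, with Benjamini-Hochberg adjustment over 13875 genes and checks on simulated data. Alternatives were other pseudocounts, filters and scalings, library weights, an exact rank test, edgeR 4.0.16, DESeq2 1.42.0 and leaving out libraries. Low counts limit the precision of Areg and Sphk1 in sham, and intervals cover counting error only. The 10 genes and all lists were chosen with earlier results of these data known. Named were the 10 genes, the 3 genes of smallest adjusted p per direction and pathway list, the 2 most abundant called markers per marker list, and the 2 most similar genes per gene. Exceptions are marked in the text, and some genes that the rule names are not reported here. No table column was unused.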

Additional observations from a re-analysis of the deposited data

Results flagged for a closer look

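Egfr stood out in 1 library of each group. In IR9 its normalized count was 2144, and the gap to the next IR library took up 0.735 of the group's range on the log2 scale, above the limit of 0.493 for 9 samples. In W8 it was 1006, and the gap took up 0.630 of the sham range. Both were the lowest libraries of their groups. In 20 groups examined (10 genes in each of 2 surgeries), chance flags about 1 in 20. The difference in Egfr was 0.91 with all libraries, 0.76 without W8 and 1.04 without IR9, and limma called it in each case.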

How the results depend on the processing

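The calls of the 10 genes kept their direction and stayed past the threshold under every alternative in which they were tested, 30 for each gene and 27 for Areg. Areg left the test with a minimum mean of 20, without IR8, and without IR5 and IR8 (an alternative chosen after seeing the data), so that 7 genes rather than 8 were called higher there. The difference in Areg ran from 1.59 (pseudocount 5) to 5.51 (DESeq2), and that in Hbegf from 1.65 to 3.05. For Myc the difference ran from 0.85 to 1.77, with adjusted p up to 0.0401. Leaving out 1 library gave 5096 to 5222 genes higher and 4999 to 5137 lower. Among the relations of gene pairs and the SD differences, 4 values changed sign, none of them past a threshold: r of Hgf and Met in IR with total count scaling (0.0231), r of Hbegf and Myc in sham without 2 libraries (-0.53), the SD difference of Hgf without IR4 (-0.0236, and up to 0.227 when other libraries were left out) and that of Egfr without W8 (0.153, and down to -0.378). The r of Inhba and Fst in IR rose to 0.81 without 2 libraries, and the SD of Areg differed with pseudocount 5 (adjusted p = 0.0121). No paired analysis was possible because the column numbers tie no library to a sample or animal.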

Other observations

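Transcript ratios per kb of merged exons were computed after the values were seen and are descriptions only. The ratio of Egfr to the sum of its 7 ligands had a median of 8.15 in sham (3.63 to 9.98) and 4.58 in IR (1.46 to 6.56), with the lowest values in W8 and IR9. The ratio of Met to Hgf had a median of 6.14 in sham (5.32 to 7.71) and 7.29 in IR (3.00 to 15.1), so that the IR libraries lay on both sides of the sham range. Ereg, the epiregulin gene, held a median of 6.67% of the ligand sum in IR and 1.76% in sham.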
